A study of Mus musculus with 10 samples.

Results

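Nsl1 and 7 genes beside it on mouse chromosome 1 are described here, 8 of the 56748 genes in the deposited count table. Nsl1 was chosen by its counts in these libraries, read in every flox and no HKO library, so its own difference is given as a description and is not tested. The other 7 genes, Angel2, Vash2, Flvcr1, Tatdn3, Batf3, Atf3 and Ppp2r5a, were chosen for lying near it, and the question is whether 1 gene or the whole region was lost. Livers came from mice labelled ACSS2-HKO (HKO, 5 libraries), in which ACSS2 was removed from liver cells, and from mice labelled ACSS2-flox (flox, 5 libraries), the floxed controls. For 4 months both groups were fed HFFD, a diet high in fat and fructose. The Cre line, strain, sex, age and litter, and whether each library came from its own animal, are not given in the labels. P-values therefore measure the spread between these libraries, which may be technical.

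NSL1 is a subunit of the MIS12 complex, which it forms with MIS12, DSN1 and PMF1. The complex sits on centromeric chromatin through CENP-C and CENP-T and holds the NDC80 complex and KNL1, which catch the spindle microtubules when chromosomes separate. Most hepatocytes of an adult liver do not divide. The neighbours have unrelated roles, in nucleic acid and RNA-end processing (Tatdn3, Angel2), reported heme export (Flvcr1), microtubule modification (Vash2), transcription (Batf3, Atf3) and protein dephosphorylation (Ppp2r5a).

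Library totals ran from 15413648 to 19275358 counts in HKO and from 16933436 to 17196774 in flox. Levels are given as CPM, read counts scaled by library size with TMM factors. Where a gene had no read, 3 counts were taken as the limit, which is 0.165 to 0.198 CPM in an HKO library and 0.151 to 0.184 CPM in a flox library. That limit covers counting error only. Acss2, the gene under deletion, stood at 40.2 to 59.0 CPM in HKO, against 56.5 to 128.8 CPM in flox. Its log2 fold change of -0.71 ± 0.21 (HKO over flox, SE) did not pass the gene test (edgeR quasi-likelihood test, Benjamini-Hochberg adjusted p = 0.0858). The 10 hepatocyte markers checked were read in all 10 libraries. Every fold change below is HKO over flox from that test, fitted to all 14068 genes that passed a filter on low counts, and a gene is called where its adjusted p is under 0.05.

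In the deposited table Nsl1 (ENSMUSG00000062510) spans positions 190795209 to 190818671 of chromosome 1, plus strand. Tatdn3 lies on the other strand and its annotated start is 79 bases from that of Nsl1, so the genes point away from each other. Batf3 begins 11.4 kb beyond the other end of Nsl1. The build of these coordinates is not GRCm38. All 8 genes have the same extent in GENCODE M21, which is on GRCm38, at positions 267803 bases higher, so the order and distances are the same in both. GENCODE M21 places 3 coding transcripts of 5 to 6 exons in Nsl1, and 1 other gene, Gm38188, overlaps it and had 0 counts. No other M21 gene was a near-identical copy of an Nsl1 transcript (at least 95% identity over at least 50% of its length).

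The stretch between the starts of Tatdn3 and Nsl1 is shown because both genes begin there while their counts differed. It is RefSeq sequence of build GRCm38.p6, chr1:191062933-191063041 on the minus strand (in the sense of Tatdn3), and holds the first 30 bases of Nsl1 followed by the 79 bases between the genes. Capitals mark GGCGGGAA, a form of the motif bound by the cell-cycle factors of the E2F family, searched on both strands.
Tatdn3-Nsl1 start region: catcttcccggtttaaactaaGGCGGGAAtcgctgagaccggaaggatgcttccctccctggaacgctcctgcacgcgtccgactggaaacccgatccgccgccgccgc
The motif lies within the first 30 bases of Nsl1, and 80 bases from the Tatdn3 start. It occurs in 2.19% of the 32851 promoter windows in the RefSeq table, and in a window of 2.52% of the 27025 genes there. Nsl1 has no entry in that table, so its own window was not searched. Of the 7 members that have an entry, 2 had the motif, Tatdn3 and Ppp2r5a. Of the other motifs searched in the same way, TTTGAA, the cell-cycle homology element, was found in Angel2 (20.2% of all genes with an entry). TTACGTCA, a form of the cyclic AMP response element, was found in Atf3 (0.581% of genes), and TGACGTCA in none of the 7 (2.03%). A match describes the letters and does not show binding.

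Nsl1 had 0 counts in each of the 5 HKO libraries, against 12, 17, 15, 17 and 26 counts in flox replicates 1 to 5. In CPM the flox libraries held 0.734, 1.04, 0.819, 0.974 and 1.31, with a mean of 0.974 ± 0.222 (SD, n = 5), and every HKO library held 0. All 5 flox libraries therefore lay above all 5 HKO libraries, and flox replicate 5 was the highest. Summed over the groups there were 0 counts in HKO and 87 in flox. Taking 3 counts over the whole HKO group as the limit, Nsl1 was at least 26.3-fold lower in HKO, or at most 3.80% of flox. Per kilobase of gene length the flox level was 0.184 CPM, so the gene was scarce in the controls too.

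**Figure D1:**
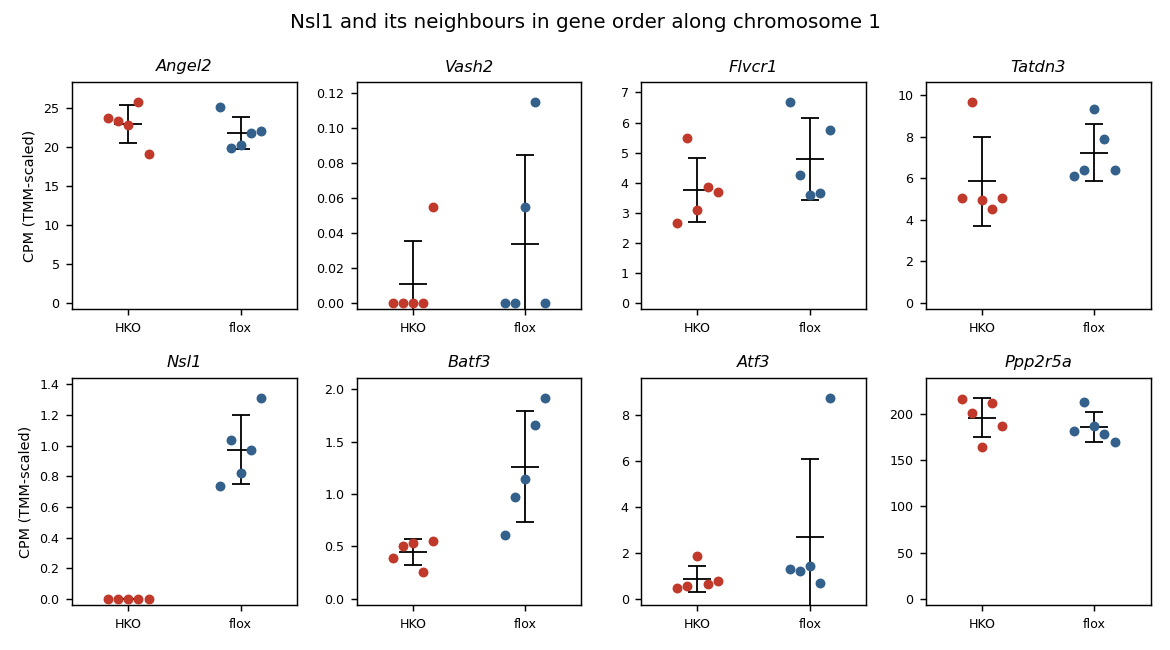
CPM of the 8 genes in gene order along chromosome 1 (vertical axis, TMM-scaled CPM, a separate scale for each gene), with 1 point per library, a black line at the mean and bars of 1 SD (n = 5 per group), HKO in red and flox in blue. Nsl1 is at 0 in all 5 HKO libraries and between 0.734 and 1.31 CPM in flox, while Tatdn3, Angel2, Flvcr1, Batf3, Atf3 and Ppp2r5a have counts in every HKO library; bars that would run below 0 are cut off at the axis.

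Few genes in the table share the pattern by which Nsl1 was chosen. Of the 28708 genes with a count in any library, 10 were read in every flox and no HKO library (0.0348%) and 4 in every HKO and no flox library (0.0139%). Nsl1 had the most counts of these 14. With at least 5 or at least 10 counts asked of every library in the group that was read, Nsl1 was the 1 gene left, and 0 were left in the other direction. Among the 12814 genes with at least 10 counts in every flox library, the next lowest was Hao2, a peroxisomal hydroxyacid oxidase, with 6 counts in HKO and 688 in flox. Another 1796 genes had flox totals within 1.5-fold of that of Nsl1 (58 to 130 counts). Their HKO totals ran from 2 to 1216 counts with a median of 71, and 0 of them had no HKO count, while 7 had under 5. Both sets were taken by flox counts alone. Nsl1 was chosen for having no HKO count, so its lowest place in them follows from that choice. Hmmr, which encodes a spindle-binding protein and was chosen here after its values were seen, had 2 counts in HKO and 118 in flox. The kinesin gene Kif2c, chosen in the same way, had 3 in HKO and 65 in flox. Also among the 7 with under 5 were Tafa2 (2 in HKO and 65 in flox) and Hapln1 (3 and 79). So were Sirpb1c (3 and 72) and Ckap2l (4 and 120).

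**Figure D2:**
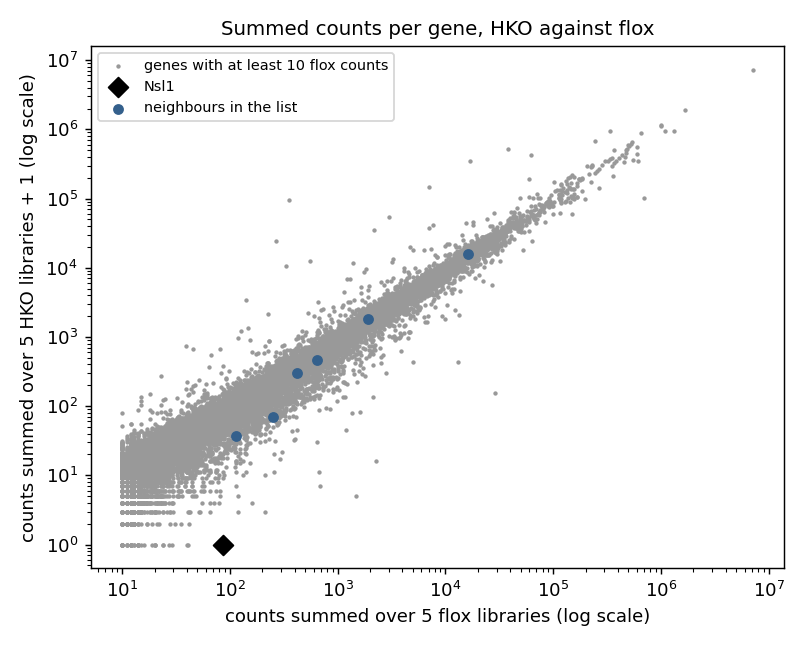
Counts summed over the 5 HKO libraries plus 1 (vertical axis, log scale) against counts summed over the 5 flox libraries (horizontal axis, log scale) for each gene with at least 10 flox counts. Nsl1 (black diamond) stands at 87 flox counts and no HKO count, and Ppp2r5a, Angel2, Tatdn3, Flvcr1, Atf3 and Batf3 (blue) lie in the cloud of other genes.

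The other 9 genes read in every flox and no HKO library had 5 to 40 counts in flox. The 5 with the highest flox level after Nsl1 lay on other chromosomes. Sult3a1, a sulfotransferase gene on chromosome 10, had 6, 13, 15, 1 and 5 counts in flox replicates 1 to 5. Cenps on chromosome 4, which encodes another kinetochore protein, had 6, 3, 2, 1 and 8. A530076I17Rik, Vmn1r184 and Grin2b had 19, 16 and 14 counts summed over flox. In the other direction, Gm26879, a long noncoding RNA gene whose start is 0.981 Mb from that of Nsl1, had 4, 4, 2, 1 and 1 counts in HKO replicates 1 to 5 and 0 in every flox library. It overlaps Rcor3 and Traf5 on the other strand, which had 1901 and 726 counts over the 10 libraries. Without a known strand setting its reads cannot be told apart from theirs. Vmn2r-ps110, Lenep and Gm20493, the other 3 genes of this kind, had 23, 10 and 7 counts summed over HKO. Lenep overlaps Flad1 on the same strand (7453 counts over the 10 libraries), and Gm20493 overlaps H2-DMa on the other strand (780 counts). The origin of the Lenep and Gm20493 reads is therefore uncertain too.

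Tatdn3, which encodes a predicted nuclease of the TatD family and shares its start region with Nsl1, was read in all 10 libraries. It had 78, 153, 75, 70 and 92 counts in HKO replicates 1 to 5, and 100, 105, 171, 138 and 127 in flox replicates 1 to 5. Its level was 5.06, 9.64, 4.96, 4.50 and 5.07 CPM in HKO and 6.12, 6.39, 9.34, 7.91 and 6.40 CPM in flox. HKO replicate 2 lay above all flox libraries and the other HKO libraries lay under all of them, so the groups overlapped. The log2 fold change of -0.31 ± 0.24 (SE) did not pass the gene test (edgeR adjusted p = 0.568). The 95% interval around it runs from 55.4% to 118% of the flox level. Without HKO replicate 2 the log2 fold change was -0.56 (edgeR adjusted p = 0.177).

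Angel2, on the other side of Tatdn3, belongs to the CCR4 family of nucleases and acts on RNA ends. It held 23.7, 23.3, 22.8, 25.7 and 19.1 CPM in HKO replicates 1 to 5 and 25.1, 19.9, 20.3, 21.8 and 22.1 CPM in flox replicates 1 to 5. The groups overlapped, the log2 fold change was 0.07 ± 0.12 (edgeR adjusted p = 0.837), with a 95% interval from 86.3% to 128% of flox. Flvcr1, reported as a heme exporter and named after a feline leukaemia virus receptor, held 2.66, 5.48, 3.11, 3.86 and 3.69 CPM in HKO and 6.67, 4.26, 3.60, 3.67 and 5.74 CPM in flox. Its groups overlapped too, and the log2 fold change was -0.35 ± 0.26 (edgeR adjusted p = 0.545; 95% interval 52.2% to 118% of flox). Vash2, between these genes, encodes a vasohibin, an enzyme that trims tyrosine from tubulin. It was near the limit of detection in both groups, with 1 count over the HKO libraries and 3 over the flox libraries, so no difference was detectable at this depth.

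On the far side of Nsl1 the nearest gene is Batf3, a leucine zipper transcription factor that mice need to form type 1 dendritic cells. It had 6, 8, 8, 4 and 10 counts in HKO replicates 1 to 5, and 10, 16, 21, 29 and 38 in flox replicates 1 to 5. In CPM the highest HKO library (replicate 5) stood at 0.551 and the lowest flox library (replicate 1) at 0.612, so the groups did not overlap. Among all tested genes, a set that leaves out Batf3, 5.37% had groups that did not overlap, 3.46% with HKO lower. The means were 0.446 ± 0.123 CPM in HKO and 1.26 ± 0.525 CPM in flox (SD, n = 5 each). Permuting the libraries between groups (exact, two-sided, on log2 CPM) gave p = 0.00794, the smallest that 5 against 5 libraries allow. That value restates the lack of overlap. Batf3 missed the filter on low counts. Fitted without that filter its log2 fold change was -1.48 ± 0.44 and did not pass (edgeR adjusted p = 0.0658, with 2.18% of genes called lower), whereas DESeq2 gave -1.49 ± 0.45 and called it (adjusted p = 0.0200, with 4.4% of genes called lower and 6.14% called in all). Unlike Nsl1, Batf3 was read in every HKO library.

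Atf3, a stress-induced factor of the ATF family, is the next gene along. It held 0.454, 0.567, 1.85, 0.643 and 0.772 CPM in HKO replicates 1 to 5 and 1.28, 1.22, 1.42, 0.688 and 8.71 CPM in flox replicates 1 to 5. Flox replicate 5 had 173 counts of Atf3, the next highest flox library had 26, and the rest of the flox libraries overlapped HKO. The log2 fold change of -1.65 ± 0.67 did not pass (edgeR adjusted p = 0.217). Without flox replicate 5 it was -0.42 (edgeR adjusted p = 0.759), with a flox mean of 1.15 ± 0.321 CPM (SD, n = 4) beside the HKO mean of 0.857 ± 0.567 CPM (SD, n = 5). The AP-1 genes Fos and Jun, which are induced with Atf3 by many stresses, were also highest in flox replicate 5, at 933 and 2743 counts. The Fos log2 fold change was -2.07 ± 0.89 (edgeR adjusted p = 0.250). That of Jun was -0.47 ± 0.70 (edgeR adjusted p = 0.804). Over the list of 12 AP-1, ATF and IRF partners of Atf3 and Batf3, 9 were tested and 0 were called in either direction. Among all tested genes 3.99% were called.

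Ppp2r5a, a targeting subunit of protein phosphatase 2A, was the most abundant of the 8 genes. Its level was 216, 201, 164, 211 and 186 CPM in HKO replicates 1 to 5 and 181, 212, 187, 178 and 169.6 CPM in flox replicates 1 to 5. The groups overlapped, the log2 fold change was 0.08 ± 0.13 (edgeR adjusted p = 0.824), with a 95% interval from 86.2% to 129% of flox. At 4 other loci there is a near-identical copy of at least 1 of its 8 annotated transcripts, so part of its reads may be uncertain in origin. Of the 10 other PP2A subunits listed, 1 was called, where 3.99% of all tested genes were. It was the regulatory subunit gene Ppp2r2d, at 50.8 ± 8.89 CPM in HKO and 33.0 ± 3.20 CPM in flox (log2 fold change 0.62 ± 0.14, edgeR adjusted p = 0.0275).

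Ordered by level per kilobase of gene length, flox livers ran from Ppp2r5a at 19.3 CPM per kilobase through Angel2 (3.92), Tatdn3 (2.60), Atf3 (1.24), Flvcr1 (0.925) and Batf3 (0.790) to Nsl1 (0.184) and Vash2 (0.00784). The position of Atf3 in this order rests on flox replicate 5. In HKO livers the order was Ppp2r5a (20.4), Angel2 (4.12), Tatdn3 (2.10), Flvcr1 (0.726), Atf3 (0.398), Batf3 (0.279), Vash2 (0.00256) and Nsl1 at 0. Vash2 rests on 1 count over the HKO libraries, so the order of Vash2 and Nsl1 there is not resolved. No test was made between genes.

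Apart from Nsl1, 5 of the 7 neighbours passed the filter and 0 of these 5 were called, where 3.99% of all tested genes were (0.917% higher and 3.07% lower in HKO). At an unadjusted edgeR p under 0.05, which 16.9% of all tested genes reached, there was 1, Atf3, whose value rests on flox replicate 5. Batf3 was called by DESeq2, and by edgeR without flox replicate 1 (adjusted p = 0.0261). With any 1 HKO library left out instead, edgeR did not call it (adjusted p from 0.0622 to 0.114).

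The wider region was read in HKO as well. Within 1 Mb of the Nsl1 start, 22 other genes were tested, 1 was called and it was higher in HKO, a share of 4.55% against 3.99% over all tested genes. Their median log2 fold change was 0.05, beside 0.01 over all tested genes, and they ran from -1.65 (Atf3) to 1.27. Of 27 other genes in that window with at least 10 flox counts in all, each had at least 9 counts in HKO. Nenf, which encodes the secreted protein neudesin and was chosen after its values were seen, lies 0.244 Mb from Nsl1, between Atf3 and Ppp2r5a. It was at 4.67 ± 1.38 CPM in HKO and 7.63 ± 2.88 CPM in flox, with overlapping groups, and was not called (-0.71 ± 0.29, edgeR adjusted p = 0.218). Within 5 Mb, 47 others were tested and 3 were called, 2 of them higher and 1 lower in HKO (6.38%), and the median log2 fold change was 0.06. Of 65 other genes there with at least 10 flox counts, 1 had none in HKO, the noncoding Gm35546, and 36 of its 41 flox counts came from flox replicate 5. Without the filter on low counts Gm35546 and Cenpf, a kinetochore gene 1.42 Mb from Nsl1, were called as well, and Cenpf also by DESeq2.

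**Figure D3:**
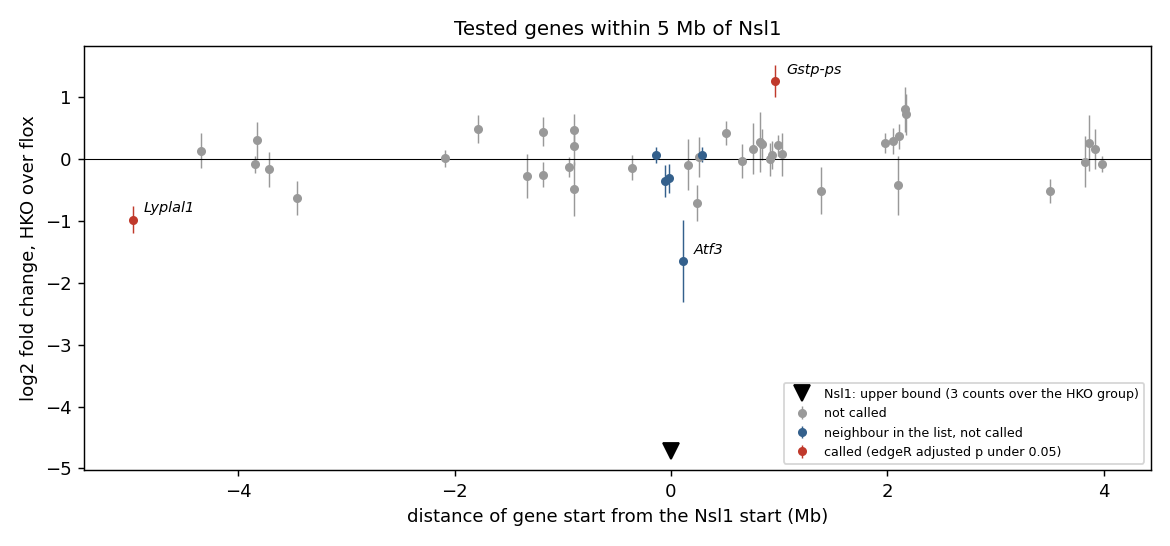
Log2 fold change, HKO over flox, with its SE (vertical axis) against the distance of each gene's start from that of Nsl1 (horizontal axis, Mb) for the other tested genes within 5 Mb, with 1 of the 3 called genes left out. Called genes are red, the 5 tested neighbours blue and the rest grey, and the black triangle is the upper bound for Nsl1 from 3 counts over the HKO group; Tatdn3, Flvcr1, Angel2 and Ppp2r5a lie between -0.35 and 0.08, and Atf3 lies at -1.65.

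The 3 called genes stood apart from Nsl1 by 0.963 Mb or more, and 2 of them are described here. Gstp-ps, a pseudogene of the Gstp glutathione transferases, held 74.0, 134, 75.6, 80.8 and 74.4 CPM in HKO replicates 1 to 5 and 17.3, 38.8, 35.2, 39.8 and 51.0 CPM in flox replicates 1 to 5. All HKO libraries lay above all flox libraries (log2 fold change 1.27 ± 0.25, edgeR adjusted p = 0.0156). It is near-identical to Gstp1 and Gstp2, and Gstp1, on another chromosome, was higher by 1.22 ± 0.29 on the log2 scale (edgeR adjusted p = 0.0298), so reads of these genes cannot be told apart with certainty. Lyplal1, a lysophospholipase-like gene at the edge of the window, was at 8.89 ± 1.52 CPM in HKO and 17.5 ± 5.33 CPM in flox (log2 fold change -0.97 ± 0.21, edgeR adjusted p = 0.0215), a call lost without HKO replicates 4 or 5 or flox replicate 2 (0.0513 to 0.0547).

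The partners of NSL1 in the kinetochore were read in HKO livers. Within the MIS12 complex, Mis12 was at 15.8 ± 3.20 CPM in HKO and 15.3 ± 3.14 CPM in flox (log2 fold change 0.04 ± 0.18, edgeR adjusted p = 0.945). Dsn1 was at 0.579 ± 0.271 CPM in HKO and 1.20 ± 0.286 CPM in flox (-1.04 ± 0.37, adjusted p = 0.156). Pmf1 was at 5.98 to 14.8 CPM in HKO and 9.61 to 19.8 CPM in flox (-0.57 ± 0.24, adjusted p = 0.242). None of these 3 passed the gene test, and the groups overlapped for each. In the list of 13 kinetochore genes, 9 were tested and 0 called in either direction, where 3.99% of all tested genes were called. The median log2 fold change of the 9 was -0.26.

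The 4 kinetochore genes that missed the filter, Ndc80, Nuf2, Knl1 and Bub1, had 56 to 77 counts summed over flox, near the 87 of Nsl1, and 5 to 14 summed over HKO. Ndc80, the microtubule-binding subunit, had 0, 1, 3, 0 and 1 counts in HKO replicates 1 to 5 and 9, 4, 6, 14 and 23 in flox replicates 1 to 5. Its partner Nuf2 had 1, 1, 3, 3 and 0 counts in HKO and 12, 17, 7, 13 and 24 in flox. The checkpoint kinase gene Bub1 had 0, 3, 1, 1 and 2 counts in HKO and 4, 8, 14, 15 and 24 in flox. For these 3 genes all HKO libraries lay under all flox libraries in CPM. The same held for 3.46% of all tested genes, a set that leaves these 3 out. Without the filter Ndc80, Nuf2 and Bub1 were called lower (edgeR adjusted p = 0.0114, 0.00547 and 0.00808), as they were by DESeq2. Over all genes 2.18% were called lower without the filter and 4.4% by DESeq2. Knl1, the scaffold of the checkpoint, had 14 counts in HKO and 77 in flox, with overlapping groups, and was called by neither.

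**Figure D4:**
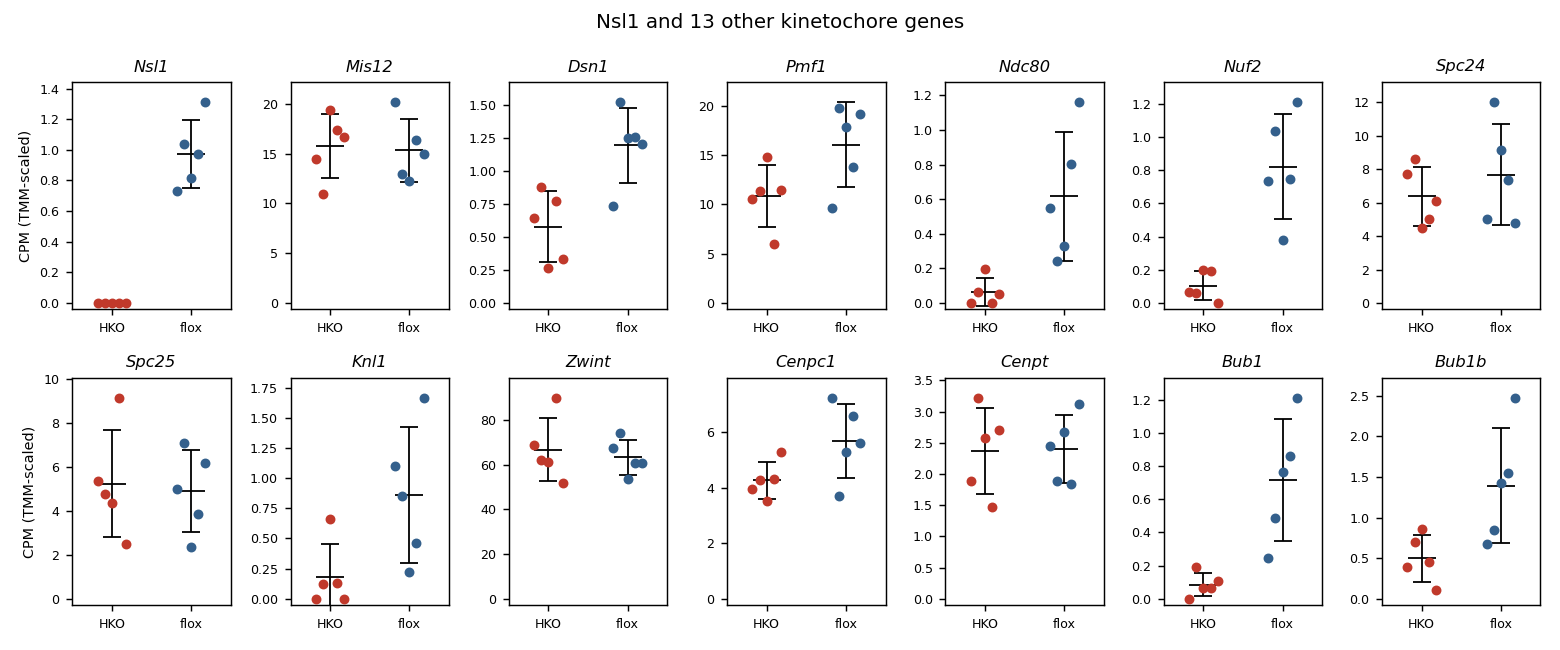
CPM of Nsl1 and of the 13 other kinetochore genes (vertical axis, TMM-scaled CPM, a separate scale for each gene), 1 point per library, with the mean and 1 SD (n = 5 per group), HKO in red and flox in blue. Nsl1 is at 0 in all HKO libraries, and Ndc80, Nuf2 and Bub1 are lower in HKO without overlap. The rest of the 13 overlap between groups, and 10 of the 13 have a lower mean CPM in HKO.

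Of the 8 markers of dividing cells listed, 7 were tested and 3 were called, all lower in HKO (Mki67, Top2a and Ccnb1). Over all tested genes 3.07% were called lower. The median log2 fold change of the 7 was -1.75. Mki67 was at 1.19 ± 1.13 CPM in HKO and 8.69 ± 3.23 CPM in flox (log2 fold change -2.87 ± 0.47, edgeR adjusted p = 0.00745). The Ccnb1 call was lost with DESeq2 (adjusted p = 0.117), in the fit blocked by replicate number (0.0577) and without HKO replicates 1, 2, 4 or 5 or flox replicates 2 or 5 (0.0831 to 0.0907). The summed level of the 8 markers was 3.56 to 10.4 CPM in HKO and 13.7 to 39.5 CPM in flox, so the groups did not overlap. Flox replicate 5 was the highest library for this sum as for Nsl1. Ccnb1 was at 0 in every HKO library but replicate 3, and the other 7 markers had counts in all of them. The part of dividing cells in the Nsl1 result was not tested, and in whole liver fewer cells of a type and less RNA per cell cannot be told apart.

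All 12 macrophage markers listed were called lower in HKO (median -1.69 on the log2 scale), where 3.07% of all tested genes were. The summed level of the 12 markers was 118 to 248 CPM in HKO and 313 to 750.05 CPM in flox. Of the 8 markers of type 1 dendritic cells, the cells that depend on Batf3, 6 were tested and 0 called, and the median log2 fold change was -0.37. All 6 had a negative log2 fold change, and all 8 had a lower mean CPM in HKO. DESeq2 called 1 of the 8, Naaa, lower, with 4.4% of all genes called lower. The summed level of the 8 markers overlapped, at 41.2 to 59.8 CPM in HKO and 58.0 to 93.5 CPM in flox, highest in flox replicate 5. None of the 8 was at 0 in any library. Clec9a, a defining marker of these cells, was at 4.85 ± 1.64 CPM in HKO and 5.54 ± 2.50 CPM in flox (log2 fold change -0.20 ± 0.33, edgeR adjusted p = 0.828). The part of macrophages or dendritic cells in the levels of Batf3 and Nsl1 was not tested.

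The likeness of other genes to Nsl1 over the 10 libraries was measured by Pearson correlation of log2 CPM. It is a description, since the group difference by which Nsl1 was chosen sets most of it. Among the 14068 genes that passed the filter on low counts, which leaves out Batf3 and Vash2, the 6 most alike included AW112010 (r = 0.955), Itgal, Tmem176a, Top2a and Fcer1g (r = 0.944). Itgal encodes a leukocyte integrin chain and Fcer1g the signalling chain of Fc receptors, while Top2a is the topoisomerase of dividing cells. Their log2 fold changes, whose sign the likeness to Nsl1 fixes, ran from -3.44 for Top2a to -0.74 for Tmem176a. Among the neighbours r was 0.853 for Batf3, 0.544 for Atf3, 0.451 for Tatdn3, 0.430 for Flvcr1, 0.0449 for Vash2, -0.256 for Angel2 and -0.290 for Ppp2r5a.

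The lists of heme genes, TatD nucleases, CCR4-type nucleases and vasohibin partners held 0 calls, where 3.99% of all tested genes were called. Of 6 heme genes listed with Flvcr1, 5 were in the table under that name and tested, and 0 were called, among them Alas1, the first enzyme of heme synthesis, at 1061 ± 258 CPM in HKO and 835 ± 187 CPM in flox, and Abcg2. The TatD nucleases Tatdn1 and Tatdn2 were tested and neither was called. Of the 5 CCR4-type relatives of Angel2, 0 were called. The nearest to a call was Noct, a clock-controlled deadenylase-like gene, at 42.1 ± 10.4 CPM in HKO and 86.1 ± 48.5 CPM in flox (log2 fold change -1.03 ± 0.30, edgeR adjusted p = 0.0769), which was called lower without the filter on low counts and by DESeq2. Svbp, the partner of the vasohibins, was not called either (-0.37 ± 0.20, edgeR adjusted p = 0.374).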

How the data were processed

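RNA-seq of liver was deposited as raw counts of reads per gene, as the authors' table gives whole numbers with unequal totals. Tools named are DESeq2, with mm10 as build, per the submitters' processing notes, though the table's coordinates are not those of GRCm38. No aligner, counting program or strand setting is named.

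Gene by gene, HKO and flox were compared with edgeR 4.0.16 (TMM, filterByExpr, two-sided quasi-likelihood F-test, R 4.3.3), adjusted over 14068 genes. The SE was derived from the fold change and its F statistic, and 95% intervals use 8 residual degrees of freedom. Log2 CPM had 2 counts added. DESeq2 1.42.0 was an alternative. The code was tested on simulated data. No pair of libraries within a group agreed within sampling noise (smallest chi-square per degree of freedom 24.6). Copies were sought with BLAST 2.17.0.

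Members and lists were chosen with earlier results of these data known. Named were the members, Acss2, called genes within 5 Mb, called or most abundant partners, the 6 genes most like Nsl1, and the most abundant genes read in 1 group alone. Of these, 2 genes are not reported here. Genes named beyond these, such as Hao2, Fos and the untested kinetochore genes, were chosen after their values were seen.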

Additional observations from a re-analysis of the deposited data

Results flagged for a closer look

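In 11 genes, the 8 members and the 3 called genes within 5 Mb, each group of 5 libraries was searched for 1 library far from the other 4 (21 groups with any spread). Chance flags about 1 group in 20, and 5 were found. Atf3 stood at 8.71 CPM in flox replicate 5, against at most 1.42 CPM in the other flox libraries. In HKO replicate 3 Atf3 stood at 1.85 CPM, against at most 0.772 CPM in the other HKO libraries. Tatdn3 stood at 9.64 CPM in HKO replicate 2, against at most 5.07 CPM in the other HKO libraries. Gstp-ps stood at 134 CPM in the same library, against at most 80.8 CPM. Vash2 in HKO replicate 5 (0.0551 CPM) rests on 1 count where the other HKO libraries had 0.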

How the results depend on the processing

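The count of called genes was 561 as reported, 1112 with DESeq2, 448 with the replicate number as a block (replicate block), and 289 to 673 with 1 library left out. Neighbours of Nsl1 called went from 0 to 1 with DESeq2 (Batf3) and ran from 0 to 1 with 1 library left out. Called genes near Nsl1 within 5 Mb went from 3 to 6 with DESeq2, to 5 without the filter on low counts, and ran from 1 to 4 with 1 library left out. There was 1 within 1 Mb, 1 within 2 Mb and 5 within 10 Mb. Genes read in every flox and no HKO library went from 10 to 1, 1 and 0 with at least 5, 10 and 20 counts asked, and to between 13 and 25 with 1 library left out. Called kinetochore genes went from 0 to 3 with DESeq2, to 3 without the filter, and ran from 0 to 1 with 1 library left out. Called dividing cell markers went from 3 to 5 with DESeq2 (Mki67, Top2a, Ccna2, Aurkb and Plk1, without Ccnb1) and ran from 2 to 4 with 1 library left out. The cause of these shifts was not tested, other than that the filter decides which scarce genes are tested at all. The list counts were run under these settings after the data were seen. Same-numbered libraries did not deviate together (correlations from -0.126 to 0.239), so the numbers were not taken as pairs. Library totals alone moved the median of all genes by -0.11 and turned the log2 fold changes of Angel2 and Ppp2r5a to -0.04 and -0.03, uncalled throughout. DESeq2 gave no p for Atf3. Depth limits Nsl1 to the bound given and leaves Vash2 undescribed.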

Other observations

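Other genes of cell division lie in the same stretch of chromosome 1 and were described after their values were seen. Cenpf, which encodes a large kinetochore protein, starts 1.42 Mb from Nsl1 and had 1, 0, 7, 2 and 2 counts in HKO replicates 1 to 5, against 18, 29, 19, 7 and 39 in flox replicates 1 to 5. It missed the filter on low counts. Without that filter its log2 fold change was -2.99 ± 0.61 (edgeR adjusted p = 0.00334). The replication-licensing gene Dtl, 0.474 Mb away, had 18 counts in HKO and 60 in flox (-1.53 ± 0.65 without the filter, edgeR adjusted p = 0.297). Nek2, a centrosomal kinase gene 0.758 Mb away, had 233 counts in HKO and 231 in flox (0.17 ± 0.41, edgeR adjusted p = 0.888).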
